A study of Mus musculus with 37 samples.

Results

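Metalloproteinase genes and one inhibitor of the matrix-degrading machinery were followed through the mouse urinary tract: the metalloproteinases Mmp2, Mmp3, Mmp7, Mmp9, Mmp10, Mmp12, Mmp13 and Mmp14 and the inhibitor Timp1. They were chosen by symbol, 9 of the 24421 genes in the table of estimated counts, and all 9 passed the filter on low counts in every fit. The libraries came from wild-type (WT) female BALB/c mice. The BBN groups drank N-butyl-N-(4-hydroxybutyl) nitrosamine (BBN), a bladder carcinogen, at 0.05% in their water for 18 weeks per the design text (17 to 20 weeks per the study's methods) from an age of 6 to 7 weeks. UT denotes the side of the upper urinary tract that developed cancer in BBN-treated mice (11 libraries from 10 mice, since mouse 5 gave both sides). UN is the side without cancer in 7 of these mice, and BB is the bladder of all 10. U is the upper urinary tract of mice on tap water (6 libraries, both sides of 3 mice) and B their bladder (3 libraries). All tissue was bulk, so a change in the share of a cell type and a change in RNA per cell cannot be told apart.

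Matrix metalloproteinases are zinc-dependent enzymes that cut collagens, proteoglycans and other proteins outside the cell. Most are secreted as inactive proenzymes and are switched on by other proteases, among them plasmin and other metalloproteinases, and tissue inhibitors of metalloproteinases (Timps) bind the active enzymes and block them. In epithelia and their cancers they come both from the epithelial cells and from fibroblasts, macrophages and neutrophils of the stroma.

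Depth ran from 3557697 to 18793560 counts per library, and UN 6 and the bladders BB 1, BB 3 and BB 4 had the lowest RNA quality in the study's sample list. UN 2 was almost without urothelium, the epithelium of the tract: its 12 urothelium markers summed to 39.0 CPM (counts divided by the library total and scaled to a common total), against 1134 CPM or more in the other 36 libraries. UT 4 stood apart in kidney tissue markers, with 7 kidney tubule markers summing to 2261 CPM against at most 11.9 CPM in the other UT libraries. The library name of BB 6 carries a T that its title does not have. Where one of these libraries, or UT 2 and UN 3, which were high in several of the proteases, was found to decide a call below, it is named, mostly with the value without it.

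In UT over U 7 of the 9 genes rose, in UN over U 6 and in BB over B 5 (edgeR quasi-likelihood test, called where the Benjamini-Hochberg adjusted p was under 0.1 and the change 2-fold or more). In the whole table, UT against U had 18.7% of 15658 genes called as higher and 12.3% as lower. The shares were 12.5% and 1.21% for UN against U, and 7.61% and 5.74% of 18050 genes for BB against B. The median log2 fold change of the 9 genes was 2.58 for UT against U, 2.85 for UN against U and 2.38 for BB against B, beside 0.11, 0.13 and 0.25 over all genes tested. UT and UN were compared with the same U libraries. The 6 U libraries came from 3 mice. With counts summed per mouse, 6 of the 9 genes were called in UT over U, but in UN over U only Timp1 was called, where 13.7% and 0.974% of all genes were called higher under that setting. Leaving out any one untreated bladder left 1 or 2 of the 9 genes called in BB, where 2.74% to 2.80% of all genes were called higher. Mmp7 was called each time, Mmp3 also without B 2, and without B 3 Mmp12, which is not among the 5.

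**Figure D1:**
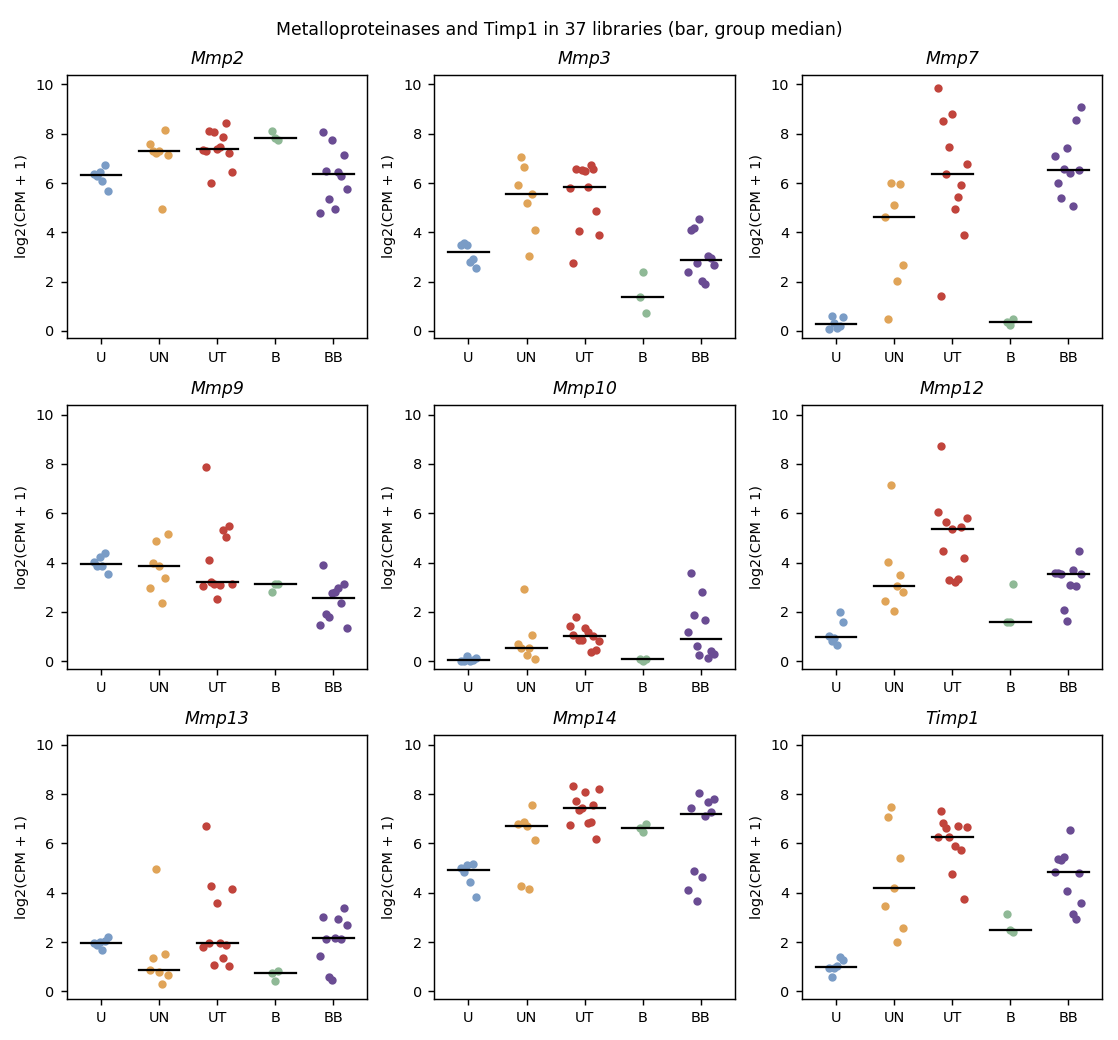
Level of each gene in each of the 37 libraries as log2(CPM + 1), by group; each point is a library and each bar a group median. All 11 UT libraries sit above all 6 U libraries for Mmp7, Mmp10, Mmp12, Mmp14 and Timp1, while the groups overlap for Mmp2, Mmp3, Mmp9 and Mmp13.

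**Figure D2:**
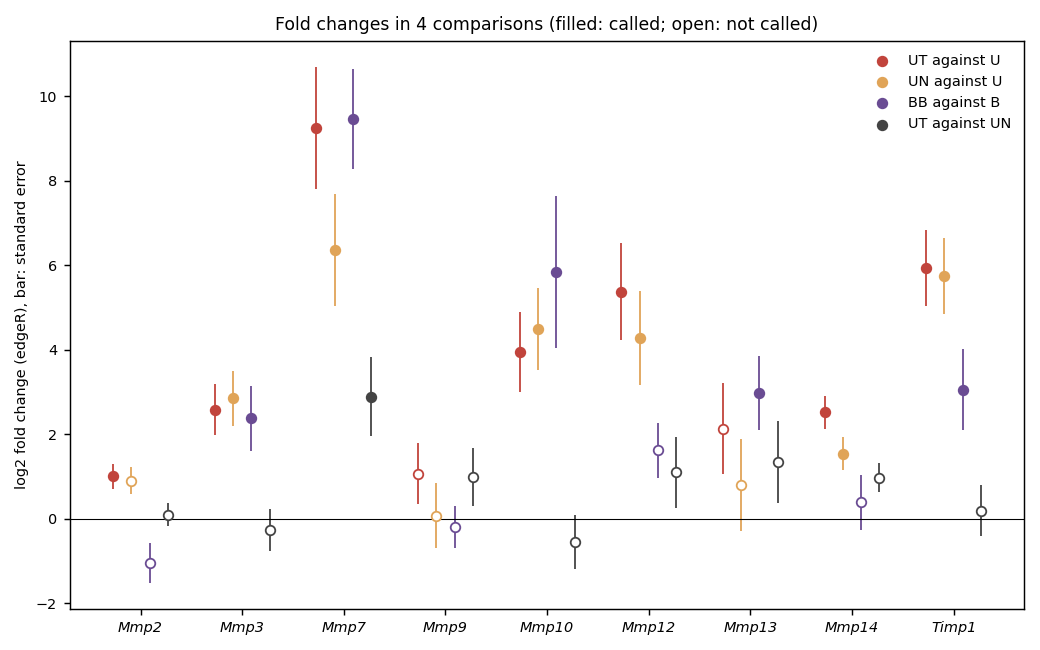
Log2 fold change (edgeR) of each gene in 4 comparisons, with bars for 1 standard error, filled where called and open where not. Mmp7 has the highest value for UT against U (9.26), for UN against U (6.37) and for BB against B (9.47), and is the only gene called in UT against UN.

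Of the members, 5 lie in a single run on mouse chromosome 9, where GENCODE vM21 (GRCm38) places 10 metalloproteinase genes within 427 kb. From its low-coordinate end the run holds Mmp13 (chr9:7272514-7283331), Mmp12 (chr9:7344381-7369499), Mmp3 (chr9:7445822-7455975), Mmp10 (chr9:7502352-7510240) and Mmp7 (chr9:7692090-7699585), all on the plus strand. Mmp2 is at chr8:92827291-92853420, Mmp9 at chr2:164940780-164955850, Mmp14 at chr14:54431612-54445364 and Timp1 at chrX:20870166-20874735, each also on the plus strand. The promoters of the run are shown because several of its 5 members were called together in UT against U, UN against U and BB against B. No comparison called all 5. The letters TGANTCA, the motif of the AP-1 family of transcription factors (Fos and Jun), were searched on both strands in the 250 bases before each start in RefSeq's promoter table (GRCm38.p6). They were found for 5 of the 7 members with an entry, in the window of Mmp3, Mmp10, Mmp13, one of 2 windows of Mmp7 and one of 2 of Mmp12. The 7 members have 9 windows in all. Counted by window, 6.75% of all 32851 promoters held the letters. The 5 are metalloproteinase genes of the same run, so their windows are not independent draws from these promoters. Mmp14 and Timp1 held no match. The 120 bases before the start (positions counted back from -1 at the start) are given 5′ to 3′ for the 4 genes whose window ends at or near the GENCODE gene start, with the AP-1 letters in capitals, at chr9:7272394-7272513 for Mmp13, chr9:7445702-7445821 for Mmp3, chr9:7502222-7502341 for Mmp10 and chr9:7691970-7692089 for Mmp7:
Mmp13: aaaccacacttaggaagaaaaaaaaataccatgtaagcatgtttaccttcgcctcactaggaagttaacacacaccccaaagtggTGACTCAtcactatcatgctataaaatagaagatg
Mmp3: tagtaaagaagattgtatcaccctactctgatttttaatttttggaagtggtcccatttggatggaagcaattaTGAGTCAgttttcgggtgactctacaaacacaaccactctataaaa
Mmp10: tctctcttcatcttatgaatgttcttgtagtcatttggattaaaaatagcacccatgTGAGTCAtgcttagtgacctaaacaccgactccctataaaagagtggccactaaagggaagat
Mmp7: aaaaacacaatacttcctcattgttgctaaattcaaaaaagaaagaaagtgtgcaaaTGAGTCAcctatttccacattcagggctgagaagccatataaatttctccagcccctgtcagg
In these windows the AP-1 letters begin at position -35 in Mmp13, -46 in Mmp3, -63 in Mmp10 and -63 in Mmp7. The TATAAA letters of a TATA box follow them at -16, -7, -29 and -26, in that order. Mmp7 has a further TATAAA match at -123, before the bases shown. Of all promoters, 12.4% hold TATAAA. A motif of NF-kB, searched likewise on both strands, is in 1.41% of all promoters and in 0 of the members' windows. Of the non-member neighbors, Mmp1a, Mmp1b and Mmp20 also held the AP-1 letters, and Mmp8 and Mmp27 did not.

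Along the run, 5 of the 7 genes tested were called higher in UT than in U: Mmp12, Mmp3, Mmp10, Mmp7 and the non-member Mmp8, neutrophil collagenase, with a log2 fold change of 6.14 ± 0.96 (SE). Mmp13 and Mmp27 lay among them and were not called. In BB against B, 6 of 9 genes tested were called higher. They were Mmp13, Mmp3, Mmp10, Mmp7, Mmp8 (4.21 ± 1.45) and Mmp20, the enamel protease, which reached no more than 3.65 CPM in any library. Of the members among them, only Mmp7 stayed called whichever B library was left out. Over all genes tested, 18.7% were called higher in UT against U and 7.61% in BB against B.

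**Figure D3:**
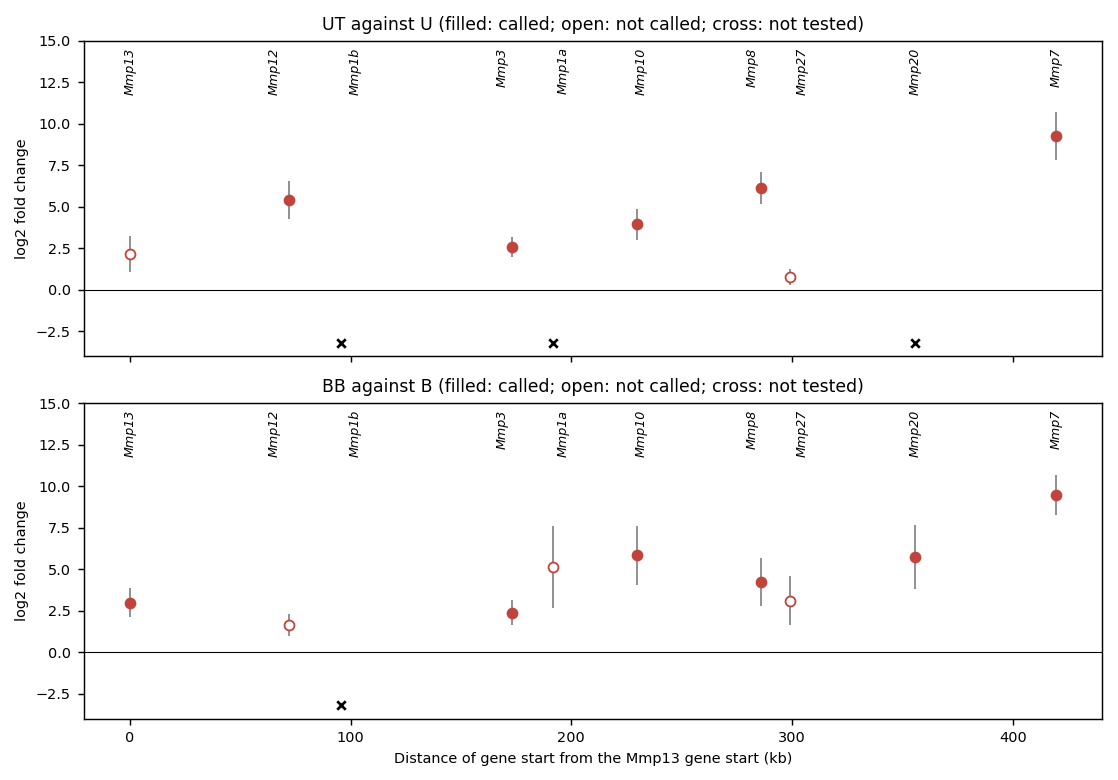
Log2 fold change (with 1 standard error) of the 10 metalloproteinase genes of the chromosome 9 run against the distance of each gene start from that of Mmp13 in kb, for UT against U (top) and BB against B (bottom); crosses mark genes not tested. Mmp7, 420 kb from Mmp13, has the highest value in both panels, and called and uncalled genes are interspersed along the run.

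Mmp7 (matrilysin), a small metalloproteinase made mainly by epithelial cells, showed the widest change. It had 0.0696 to 0.510 CPM in U (median 0.210), 25 counts in all 6 libraries together. In B it had 0.279, 0.167 and 0.391 CPM. In UT it ranged from 1.69 CPM in UT 2 through a median of 81.6 to 936 CPM in UT 1. In BB the range was 32.5 to 534 CPM with a median of 91.6. No UT library overlapped U and no BB library overlapped B, and within UT the levels spread over 553-fold. The log2 fold change was 9.26 ± 1.45 for UT against U (adjusted p = 7.56e-05) and 9.47 ± 1.19 for BB against B (adjusted p = 0.000144). As a ratio of pooled CPM, UT stood 705-fold over U (95% interval 477 to 1089) and BB 643-fold over B (376 to 1208), intervals that cover counting error only. Without UT 1, the highest library, the UT ratio was 450 (305 to 695). In UN Mmp7 ranged from 0.411 to 63.5 CPM with a median of 23.7, a log2 fold change of 6.37 ± 1.33 over U (adjusted p = 0.00373). The lowest UN value was that of UN 2, the library almost without urothelium markers, and it lay inside the range of U. Without UT 1 the log2 fold change of UT over U was 8.52, and without UN 2 that of UN was 6.59. limma-trend gave 7.16 for UT, 4.71 for UN and 8.09 for BB against B. Of 12 urothelium markers 6 were also called higher in UT than in U, among them Krt14 (7.50) and Epcam (3.88), and 2 lower, Upk1a (-4.36) and Upk2 (-1.98). The list summed to a median of 6824 CPM in UT (1445 to 12997) and 2750 CPM in U (1672 to 3314). In the bladder, where Mmp7 also rose, the list was lower in every BB library (1527 to 16765 CPM) than in B (21393 to 22473 CPM). The part of epithelial content in the Mmp7 values was not tested.

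UT exceeded UN in Mmp7 by a log2 fold change of 2.89 ± 0.94 (adjusted p = 0.0858), the only call among the 9 genes, where 1.32% of all genes were called higher. Within mice the UT value was above the UN value in 6 of 7, with a median difference of 1.27 on log2(CPM + 1), and below it in mouse 7. This call was lost with the mouse as a replicate block (log2 fold change 1.88, adjusted p = 0.728), and with counts summed per mouse (adjusted p = 0.180). It was also lost with 11 of 18 single libraries left out, namely UT 1 (log2 fold change 2.15, adjusted p = 0.113), UT 2 (adjusted p = 0.111), UT 3, UT 5R, UT 5L, UT 10, UN 1, UN 2 (adjusted p = 0.153), UN 4, UN 6 (adjusted p = 0.218) and UN 9. Reads of Mmp7 may be shared with AV064505, an antisense gene that overlaps 123 bases of its exons, since the library kit did not mark strand. Over the 37 libraries AV064505 had the pattern most like that of Mmp7 (Spearman's rho 0.98 on log2(CPM + 1)), followed by Sftpd, surfactant protein D (rho 0.91), a description over libraries that share depth and tissue.

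Timp1, the secreted inhibitor of most of these enzymes, was at 0.510 to 1.62 CPM in U (median 0.979). In UT it ranged from 12.5 CPM in UT 9 through a median of 76.0 to 159 CPM in UT 2. In UN it ran from 2.99 CPM in UN 6 to 176 CPM in UN 3, with a median of 17.5. Every UT and every UN library lay above every U library. The log2 fold change over U was 5.94 ± 0.89 for UT (adjusted p = 5.31e-05) and 5.74 ± 0.90 for UN (adjusted p = 0.000594). UT and UN did not differ beyond their spread (0.20 ± 0.61, adjusted p = 0.856), although the UT library was the higher one in 6 of 7 mice. Timp1 in UN fell into widely spaced levels, since UN 2 and UN 3 had 134 and 176 CPM while the other 5 had at most 41.0 CPM. In the untreated bladders it had 7.81, 4.60 and 4.33 CPM, all above U. BB ranged from 6.71 to 92.3 CPM with a median of 27.4, and 9 of 10 BB libraries lay above all of B. The log2 fold change of BB over B was 3.05 ± 0.96 (adjusted p = 0.0586), and it was not called when any one B library was left out (adjusted p 0.170 to 0.244). The genes most like Timp1 over the 37 libraries were Ms4a6d (rho 0.91) and Mcemp1 (rho 0.90), both known from myeloid cells. Timp1 lies within Syn1, a gene of the other strand, and shares 0 exon bases with it.

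Mmp14 (MT1-MMP), the membrane-bound metalloproteinase that activates pro-Mmp2, was at 13.03 to 34.8 CPM in U (median 29.3) and 71.7 to 324 CPM in UT (median 172). The ranges did not overlap, and the log2 fold change was 2.52 ± 0.38 (adjusted p = 6.09e-05). In UN it had a median of 103 CPM, with 16.8 CPM in UN 6 and 18.4 CPM in UN 2 inside the range of U and the other 5 above it, at a log2 fold change of 1.54 ± 0.39 (adjusted p = 0.0119). UT against UN gave 0.98 ± 0.33 (adjusted p = 0.0947), just under 2-fold and so not called. It was called with 6 of 18 single libraries left out, namely UT 1, UT 6, UT 7, UT 9 (log2 fold change 1.07), UN 3 (1.08, adjusted p = 0.0590) and UN 7 (1.18), and the adjusted p was 0.185 without UN 2 and 0.227 without UN 6. In B it had 98.4, 86.9 and 110 CPM. The BB libraries stood on either side of B. Below all of B were 4, namely BB 1, BB 3, BB 4 and BB 6 (11.5 to 28.5 CPM), and 6 were above (138 to 264 CPM). BB 1, BB 3 and BB 4 are the bladders of lowest RNA quality, and without them the log2 fold change was 0.78 (adjusted p = 0.231) against 0.39 ± 0.66 (adjusted p = 0.724) with them. B4galt1, a galactosyltransferase, and Gm9855 followed Mmp14 most closely over the 37 libraries (rho 0.96 for both).

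Mmp2 (gelatinase A), the substrate of Mmp14 and a product of stromal cells, had the smallest log2 fold change of the 9 genes in UT against U by edgeR. By limma-trend Mmp9 (-0.10) and Mmp13 (0.51) lay below Mmp2 (0.89). Mmp2 had 49.5 to 105 CPM in U (median 79.5), 63.1 to 346 CPM in UT (median 167) and 29.5 to 282 CPM in UN (median 155). The ranges overlapped. UT against U gave a log2 fold change of 1.004 ± 0.305 (adjusted p = 0.0106), which sits at the 2-fold bound and was not called in 6 of 9 other ways of processing the counts and with 8 of 17 single libraries left out (UT 3, UT 5R, UT 7, UT 8, UT 9, U 1L, U 2L and U 3L). UN against U gave 0.90 ± 0.33 (adjusted p = 0.0669), under 2-fold. Without UN 6, the lowest UN library, it was 1.006 (adjusted p = 0.0275) and was called. In the bladder the order was the opposite. B had 272, 226 and 215 CPM, and 9 of 10 BB libraries lay below all of them, at 26.5 to 268 CPM for the whole group (median 81.5), with a log2 fold change of -1.05 ± 0.47 that was not called (adjusted p = 0.155), except when all 37 libraries were fitted together (adjusted p = 0.0494). Fibroblast markers, which summed to 5026 to 7254 CPM in B and 768 to 5395 CPM in BB, moved in the same direction, and their part in the Mmp2 value was not tested. The genes most like Mmp2 were Plekho2 (rho 0.88) and Osmr, the oncostatin M receptor (rho 0.85).

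Mmp3 (stromelysin 1), which cuts proteoglycans and activates other proenzymes, was at 4.91 to 10.8 CPM in U (median 8.38). UT ranged from 5.76 CPM in UT 2 to 106 CPM in UT 7, with a median of 56.5, and UN from 7.27 CPM in UN 6 to 134 CPM in UN 2, with a median of 46.0. Only UT 2 in UT and UN 6 in UN fell inside the range of U. The log2 fold change was 2.58 ± 0.61 for UT (adjusted p = 0.00177) and 2.85 ± 0.64 for UN (adjusted p = 0.00643), and UT against UN gave -0.26 ± 0.50 (adjusted p = 0.757). UN 2, the library almost without urothelium markers, had the highest Mmp3 of all 37 libraries. The bladder had less of it, with 1.60, 4.26 and 0.662 CPM in B and 2.75 to 22.1 CPM in BB (median 6.32). BB against B gave 2.38 ± 0.77 (adjusted p = 0.0679), and 7 of 10 BB libraries lay above all of B. Without B 2 it was 3.27, and without B 1 or B 3 it was not called (adjusted p = 0.257 and 0.296). Lrg1 (rho 0.91) and the kininogen gene Kng2 (rho 0.87) were most like Mmp3 over the 37 libraries.

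Mmp10 (stromelysin 2), the close relative of Mmp3, was scarce. The 6 U libraries held 5 counts together, 3 of them none, and the 3 B libraries held 2. UT ranged from 0.299 to 2.50 CPM (median 1.02), UN from 0.0748 to 6.61 CPM (median 0.457) and BB from 0.103 to 11.03 CPM (median 0.887). Every UT library lay above every U library and every BB library above every B library, while 1 UN library overlapped U. Pooled counts gave ratios of 20.2 for UT over U (95% interval 8.4998 to 63.2), 30.4 for UN over U (12.7 to 95.2) and 52.9 for BB over B (14.5 to 439), for counting error only. BB 2 held 123 of the 256 counts in BB, and without it the ratio was 30.3 (8.22 to 253). The tests called all 3, with adjusted p = 0.00196 for UT, 0.00535 for UN and 0.0551 for BB. The call for BB was lost when any one B library was left out. UN 3 held 99 of the 134 counts in UN, and without it the pooled ratio was 9.44 (3.67 to 30.9) and the log2 fold change of UN over U 2.93 instead of 4.49. The fitted values moved with the tool, and limma-trend gave 2.08 for UT over U, 1.82 for UN over U and 2.48 for BB over B, the last not called (adjusted p = 0.156). Clec4e, a receptor of myeloid cells (rho 0.84), and BC100530 (rho 0.83) had the patterns most like Mmp10. Although Mmp3 and Mmp10 are alike in sequence, no run of 50 bases was shared between the transcripts of any of the 9 genes.

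Mmp12 (macrophage elastase) had 0.558 to 3.005 CPM in U (median 0.975), 8.302 to 423 CPM in UT (median 40.1) and 3.11 to 141 CPM in UN (median 7.27). All libraries of UT and UN lay above all of U. The log2 fold change was 5.38 ± 1.15 for UT (adjusted p = 0.000835) and 4.27 ± 1.12 for UN (adjusted p = 0.0150). One library decided much of each value. Without UT 2 (423 CPM) UT gave 4.24, and without UN 3 (141 CPM) UN gave 2.59, both still called. With counts summed per mouse Mmp12 was not called in UN against U (adjusted p = 0.1995), and neither were Mmp3, Mmp7, Mmp10 and Mmp14. UT against UN gave 1.10 ± 0.84 (adjusted p = 0.400), with -0.03 without UT 2 and 2.79 without UN 3 (adjusted p = 0.0452). Of 10 macrophage markers, 6 were called higher in UT than in U and 6 in UN. The 10 summed to 648 to 1166 CPM in U, 1086 to 5171 CPM in UT and 375 to 8674 CPM in UN. In UT against UN 9 of the 10 had a negative log2 fold change, and 0 were called. UN 2 had the highest sum and 15.4 CPM of Mmp12. Within UT the highest sum was that of UT 7, with 9.08 CPM of Mmp12, and the lowest that of UT 10, with 55.7 CPM. The part of these cells in the result was not tested. In the bladder Mmp12 had 2.02, 1.998 and 7.703 CPM in B and 2.12 to 21.3 CPM in BB (median 10.7), at a log2 fold change of 1.63 ± 0.65 that was not called (adjusted p = 0.129). It was called without B 3, the highest untreated bladder (2.57, adjusted p = 0.0899), without BB 5 (1.76, adjusted p = 0.0637), and in 2 of 9 other ways of processing the counts, DESeq2 and the library code range as a covariate. Trem1, a receptor of myeloid cells (rho 0.86), and Tnip3 (rho 0.85) were most like Mmp12. Its exons share 157 bases with Mmp1b on the other strand, which reached no more than 0.767 CPM in any library.

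Mmp13 (collagenase 3), which cuts fibrillar collagen, was even across U, at 2.17 to 3.58 CPM (median 2.92). In UT it ranged from 1.03 to 104 CPM with a median of 2.89, so the median stood next to that of U while UT 2, UT 4, UT 10 and UT 5L had 104, 18.1, 16.9 and 11.1 CPM. The log2 fold change of 2.13 ± 1.08 was not called (adjusted p = 0.109) and was 0.75 without UT 2. It was called in 4 of 9 other ways of processing the counts, among them the 10 UT libraries without UT 9 (2.22, adjusted p = 0.0913), and with 7 of 17 single libraries left out (UT 1, UT 3, UT 5R, UT 6, UT 7, UT 8 and UT 9). In UN the median was 0.803 CPM, and 6 of 7 libraries lay below every U library, with UN 3 at 29.9 CPM. The fitted log2 fold change of 0.79 ± 1.09 (adjusted p = 0.657) therefore had the opposite sign to the median, and it was -1.60 without UN 3 (adjusted p = 0.337). UT against UN gave 1.34 ± 0.97 (adjusted p = 0.379), with 3.73 without UN 3 (adjusted p = 0.0377), where it was called, and -0.04 without UT 2. In B it had 0.697, 0.333 and 0.782 CPM and in BB 0.393 to 9.40 CPM (median 3.45). Above all of B lay 8 of 10 BB libraries, and the log2 fold change was 2.98 ± 0.87 (adjusted p = 0.0435), not called when all 37 libraries were fitted together (adjusted p = 0.114). The call was also lost when any one B library was left out. No gene followed Mmp13 as closely as the others were followed, with Ola1 and Ppp1r14c nearest (rho 0.70 for both).

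Mmp9 (gelatinase B), which neutrophils and macrophages carry, was not called in any comparison of BBN with water. It had 10.5 to 19.8 CPM in U (median 14.4), 4.73 to 230 CPM in UT (median 8.34) and 4.06 to 34.7 CPM in UN (median 13.4). Of the 11 UT libraries, 6 were below all of U and 4 were above, led by UT 2. The fitted log2 fold change of UT over U was 1.07 ± 0.73 (adjusted p = 0.238), opposite in sign to the shift of the medians, and -0.06 without UT 2. Neutrophil markers rose, 5 of 7 tested in UT and 6 of 7 in UN over U, led by S100a9 with a log2 fold change of 5.21 in UT, and the list summed to 12.5 to 25.0 CPM in U and 41.6 to 637 CPM in UT. The 4 UT libraries with Mmp9 above U, namely UT 2, UT 7, UT 8 and UT 9, had sums of 586, 178, 637 and 450 CPM, where the UT median was 178 CPM. UT 1, with a sum of 622 CPM, had 7.19 CPM of Mmp9, below all of U, and UT 3, with 283 CPM, had 15.99 CPM, inside the range of U. The part of neutrophils in Mmp9 was not tested. B had 5.92, 7.79 and 7.64 CPM and BB 1.51 to 13.9 CPM (median 4.93), at a log2 fold change of -0.19 ± 0.50 (adjusted p = 0.824). Pla2g15, a lysosomal phospholipase (rho 0.83), and Serpinf1 (rho 0.82) were most like Mmp9.

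Levels were also set per kilobase of exon, with all annotated exons of a gene joined. That length was 7237 bases for Mmp12 and 5960 for Mmp14 against 1801 for Mmp3. It can exceed the length of the transcript expressed, so the order of genes with close values is not firm. On this scale Mmp2 led in U (median 23.6 CPM per kb), ahead of Mmp14 (4.91), Mmp3 (4.65) and Mmp9 (4.08), with Timp1 at 1.10 and Mmp7 at 0.197. In UT the order was headed by Timp1 (85.6 CPM per kb) and Mmp7 (76.4), then Mmp2 (49.4), Mmp3 (31.4) and Mmp14 (28.8), and Mmp12 stood at 5.54. In BB Mmp7 was first at 85.8 CPM per kb, before Timp1 (30.9), Mmp14 (24.6) and Mmp2 (24.2). In B Mmp2 had 67.0 CPM per kb and Mmp14 16.5, while Mmp7 had 0.261. Timp1, Mmp7 and Mmp12 thus ranked above Mmp9 in UT and below it in U by these medians.

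The untreated tissues differed in 3 of the genes. Mmp3 was higher in U than in B (log2 fold change 2.203 ± 0.845, adjusted p = 0.0836), and Mmp2 (-1.31 ± 0.46, adjusted p = 0.0528) and Mmp14 (-1.59 ± 0.57, adjusted p = 0.0592) were lower, where 6.62% of 18959 genes were called higher and 8.61% lower. For each of these the ranges of U and B did not overlap. The same was true of Mmp9, Mmp13 and Timp1, which were not called (adjusted p = 0.384, 0.276 and 0.148). The share of all genes with separate ranges was not counted. With any one B library left out, Mmp2 and Mmp14 were not called, and Mmp3 was called only without B 2 among these. Calls were also lost without single U libraries: Mmp2 without U 3L, Mmp3 without U 1R, U 1L or U 2R, and Mmp14 without U 2L or U 3L. Fibroblast markers summed to 1728 to 3376 CPM in U against 5026 to 7254 CPM in B, smooth muscle markers to 1826 to 3384 against 9289 to 11153 CPM and urothelium markers to 1672 to 3314 against 21393 to 22473 CPM. These ranges did not overlap, and the part of cell content in the values of Mmp2 and Mmp14 was not tested. Timp1 was lower in all 6 U libraries than in B, but its test did not pass (-2.06 ± 0.91, adjusted p = 0.148).

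Among BBN-treated mice, Mmp3 (log2 fold change 2.49 ± 0.49), Mmp9 (2.71 ± 0.57), Mmp12 (2.64 ± 0.69) and Mmp13 (1.78 ± 0.77) were called higher in UT than in BB, with adjusted p from 0.000789 to 0.0742 and 6.99% of all genes called higher. The paired libraries of 10 mice gave UT above BB in 10 mice for Mmp9 and in 9 for Mmp3. With the mouse as a replicate block Mmp3 (2.13, adjusted p = 0.0285) and Mmp9 (1.69, adjusted p = 0.0373) were called, and Mmp12 (1.66, adjusted p = 0.124) and Mmp13 (0.39, adjusted p = 0.794) were not. Mmp13 was also not called without the libraries of low RNA quality (1.600, adjusted p = 0.251), and not without UT 2 (0.38, adjusted p = 0.696), BB 1, BB 4 or BB 5. Without UT 2, which was the highest UT library in all 3, Mmp9 gave 1.58 and Mmp12 1.49, both still called. Mmp10, not called in the full fit (-1.36 ± 0.71, adjusted p = 0.149), was called lower in UT than in BB by DESeq2 (-1.58) and without BB 5, BB 8 or BB 10. UN against BB gave Mmp3 (2.72 ± 0.53) and Mmp9 (1.69 ± 0.60) higher and Mmp7 (-2.63 ± 0.84) lower, where 8.68% of genes were called higher and 9.64% lower. Mmp3 was the higher in UN in 7 of 7 mice, and with the replicate block Mmp9 was not called (1.13, adjusted p = 0.164), nor without UN 9 (1.37). Without UN 3, Mmp10 (-2.42) and Mmp13 (-2.004) were also called lower in UN than in BB. Without UN 6, Mmp12 was also called higher. Mmp7 did not differ between UT and BB beyond the spread (0.26 ± 0.67, adjusted p = 0.807), nor did Timp1 (0.91 ± 0.56, adjusted p = 0.230), which was called higher in UT without BB 6 (1.32, adjusted p = 0.0779).

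**Figure D4:**
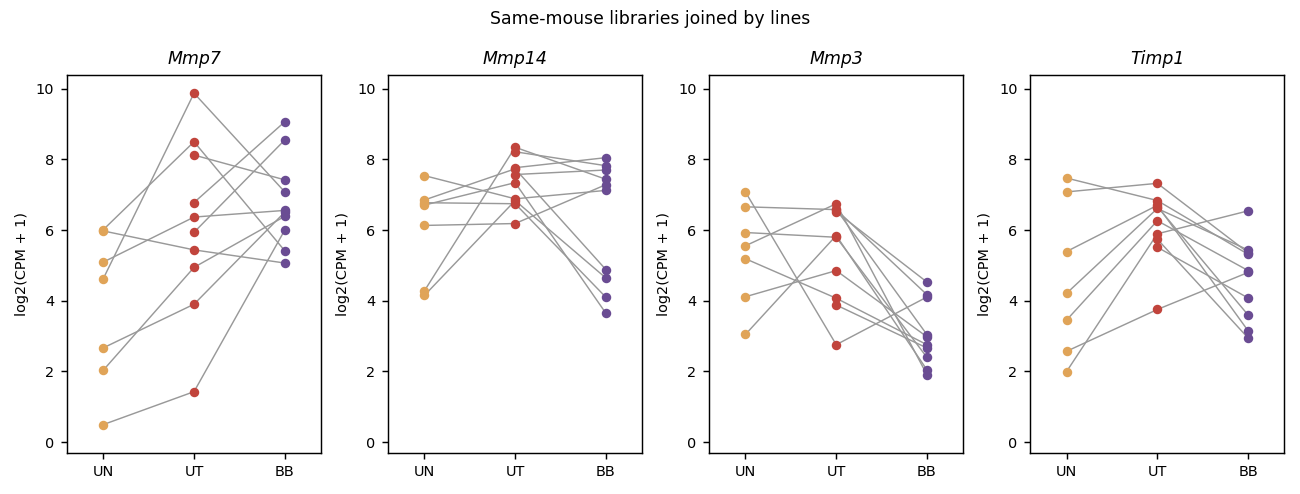
Level of Mmp7, Mmp14, Mmp3 and Timp1 as log2(CPM + 1) in UN, UT and BB, with the libraries of a mouse joined by lines and both sides of mouse 5 averaged. Mmp3 is higher in UT than in BB in 9 of 10 mice, and Mmp7 lies higher in UT than in UN in 6 of 7.

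The change with BBN was more positive in the upper tract than in the bladder for 4 genes by the interaction test, (UT minus U) minus (BB minus B), in which 6.25% of genes were called with a positive difference. These were Mmp2 (2.12 ± 0.54 on the log2 scale, adjusted p = 0.0234), Mmp14 (2.197 ± 0.673, adjusted p = 0.0521), Mmp12 (3.84 ± 1.24, adjusted p = 0.0625) and Timp1 (2.97 ± 1.07, adjusted p = 0.0823). With any one B library left out, only Mmp2 was called. Without UT 2, Mmp12 (2.69) and Timp1 were not called, and the Timp1 call was lost with 10 of 30 single libraries left out (UT 2, BB 1, 5 of the 6 U libraries and all 3 of B). For the side without cancer, (UN minus U) minus (BB minus B), only Mmp2 was called (1.99 ± 0.56, adjusted p = 0.0665), where 1.74% of genes were called with a positive difference, and it was not called when any one B library, UN 7, U 1L, U 2L or U 3L was left out. For Mmp2 and Mmp14 the starting levels in U and B also differed, as given above. The interaction for Mmp7 was -0.14 ± 1.54 (adjusted p = 0.965).

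Across mice, Timp1 was compared with each of the 8 metalloproteinases in 10 UT mice and 10 BB mice on log2(CPM + 1), 16 relations in all, with two-sided permutation tests. After Benjamini-Hochberg adjustment 0 relations passed at 0.05 by either measure, and at an unadjusted p 2 passed by Pearson's r and 1 by Spearman's rho. In UT the strongest was with Mmp14, with Pearson's r 0.66 (permutation p = 0.0296, adjusted p = 0.303) and Spearman's rho 0.52 (permutation p = 0.134, adjusted p = 0.660), and r was 0.57 without the 2 mice farthest from the median of Timp1. In BB the relation with Mmp10 had r 0.59 (permutation p = 0.0713, adjusted p = 0.303) and rho 0.68 (permutation p = 0.0346, adjusted p = 0.434), and r fell to 0.35 without the 2 farthest mice. Mmp14 in BB was the other relation past an unadjusted p by Pearson's r, negative in sign and the farthest from 0 of the 16. Its levels fell into separate sets of 4 and 6 libraries, the 4 low ones given above, so no pooled coefficient is given. Within the 6 higher libraries, a set formed after the data were seen, r was -0.14 (exact permutation p = 0.774), rho was -0.03 (exact permutation p = 1.0), and r was 0.69 without the 2 farthest mice. The higher set was cut on Mmp14 itself, which narrows its range. Its values therefore cannot decide whether Timp1 and Mmp14 are related in BB. Timp1 and Mmp7 gave r 0.05 in UT (permutation p = 0.890) and -0.43 in BB (permutation p = 0.223).

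Among the other 15 metalloproteinases, 3 of 11 tested rose and 4 fell in UT against U. Mmp8 rose most (6.14), followed by Mmp25, a membrane-anchored enzyme of leukocytes (3.36 ± 0.90), while Mmp16, also membrane-bound, fell by 2.65 on the log2 scale, and Mmp19 (-0.98) was not called. In UN, Mmp8 (5.53) and Mmp27 (1.61) rose, and in BB against B Mmp8 and Mmp20 rose and Mmp17 fell by 1.88. Of the other inhibitors, A2m, alpha-2-macroglobulin (3.17 ± 0.99), and Tfpi2 (2.002 ± 0.596) rose in UT, while Reck, a membrane-anchored inhibitor, fell by 1.35 and Timp4 by 1.76. Timp3 (-0.57, adjusted p = 0.183) and Timp2 (0.33, adjusted p = 0.331) were not called. Timp2 and Timp3 had medians of 415 and 256 CPM in UT. In UN against U, A2m had the largest log2 fold change of the 6 inhibitors tested (2.43, adjusted p = 0.127) and was not called. Reck fell by 1.57 in BB against B, the only inhibitor of 7 called there.

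Of 16 activators and partners tested, 11 rose and 2 fell in UT against U. Lcn2, the neutrophil gelatinase-associated lipocalin that binds Mmp9, rose by 7.72 ± 1.47 on the log2 scale. Serpinb2, an inhibitor of the plasminogen activators, rose by 4.45 ± 1.07. The urokinase receptor Plaur rose by 3.13 ± 0.49 and urokinase itself, Plau, by 1.29 ± 0.44. Elane, neutrophil elastase, fell by 2.29, and Bsg, an inducer of metalloproteinases, gave -0.02 (adjusted p = 0.927). In UN 8 of 16 rose, led by Lcn2 (7.85 ± 1.502), and Plau gave 0.09 (adjusted p = 0.919). Plau was the one gene of the list called in UT against UN (1.198 ± 0.418, adjusted p = 0.0986), a call that did not hold with the replicate block (1.05, adjusted p = 0.728), RIN as a covariate (0.48, adjusted p = 0.801), UT and UN alone (adjusted p = 0.214) or UN 6 left out (adjusted p = 0.228), among others. In BB against B, 4 rose, among them Lcn2 (7.71 ± 2.45) and Serpinb2 (6.19 ± 1.73), and Itgb3 fell by 1.63. Of the 18 ADAM and ADAMTS proteases, the related membrane-bound and secreted families, 6 rose and 3 fell in UT against U. Adam8 (4.13 ± 0.70), Adamts4 (3.46 ± 0.60) and Adamts1 (2.69 ± 0.44) rose most, and Adam33 fell by 2.17. Adam8 and Adamts4 also rose in UN (2.37 and 2.38) and in BB (3.60 and 3.60).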

How the data were processed

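RNA was sequenced from 37 libraries (SMARTer HT and Nextera XT kits, which do not mark strand). The values deposited by the authors are estimated counts for each gene symbol without normalization, 21.1% of the nonzero ones fractional. The submitters' processing notes name TopHat2 2.1.1, Cuffdiff 2.2.1 and GRCm38/mm10. Groups follow the labels, which give 11 UT libraries where the study's legends for RNA give 10, with no reason found in the sources used here; all 11 were used, and UT 9 was left out as an alternative. Counts were rounded and tested with edgeR 4.0.16 (R 4.3.3; quasi-likelihood, TMM, filterByExpr): UT, UN and U in one fit, BB and B in another, and all 37 libraries for contrasts across tissues. Called means an FDR below 0.1 over all genes tested together with a change of 2-fold or more. CPM is per library total, without TMM. DESeq2 1.42.0, limma 3.58.1 and other settings were alternatives. Except under the replicate block and with counts summed per mouse, tests treated the libraries of a mouse as independent.

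Coordinates and exon lengths are from GENCODE vM21 and promoters from RefSeq (GRCm38.p6). Named genes were the 9 members; of each other list up to 3 with the largest change among those called and the highest not called, and others chosen after their values were seen, with 1 gene that the rule names not reported here; and the 2 genes with the highest Spearman's rho per member. The members and lists were chosen with earlier results of these data known. Correlations used Python 3.11.15 and scipy 1.17.1 with 100000 resamples.

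The procedure was tested on simulated data: of 200 genes changed by 4-fold, 90% were recovered for UT against U (15560 genes) and 26% for BB against B (17773 genes). Libraries with the same mouse number come from the same animal. The correlation of their deviations from group means had a median of 0.049 for UT and UN, 0.14 for UT and BB and -0.0087 for UN and BB (for different mice -0.0086, -0.021 and 0.12), so blocked values are given beside calls they change. No 2 libraries of a group agreed within sampling noise (chi-square per degree of freedom at least 7.74).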

Additional observations from a re-analysis of the deposited data

Results flagged for a closer look

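In 27 groups of 6 to 10 libraries checked by Dixon's test on log2(CPM + 1), where chance gives about 1 group in 20, 4 held a library far from the rest, all in UN. UN 6, the UN library with the fewest counts, was lowest in Mmp2 (4.93, next library 7.12). UN 3 was highest in Mmp10 (2.93, next 1.08), Mmp12 (7.15, next 4.03) and Mmp13 (4.95, next 1.53).

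The change with BBN differed between upper tract and bladder by a tested interaction for Mmp2 (2.12 on the log2 scale), Mmp12 (3.84), Mmp14 (2.197) and Timp1 (2.97) with UT, and for Mmp2 (1.99) with UN. Calls for Mmp12, Mmp14, Timp1 and, with UN, Mmp2 were lost when any one of the 3 B libraries was left out, and those for Mmp12 and Timp1 also without UT 2.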

How the results depend on the processing

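Each count of called members was recomputed under the alternatives. In UN against U the 6 calls became 1 with counts summed per mouse and were 6 or 7 otherwise. In UT against UN the 1 call became 0 with limma-trend, RIN (an RNA quality number) as a covariate, counts summed per mouse, UN 6 not used, UT and UN alone, or the replicate block, and 2 with 10 UT libraries; leaving out 1 library gave 0 to 4, with 4 without UN 3. In BB against B the 5 calls ran from 1 to 6: 1 without B 1, 2 without B 2 or B 3. The 3 calls of U against B became 0 or 1 without 1 B library, 1 without U 3L. The 4 calls of UT against BB became 2 with the replicate block. The interaction calls became 1 (from 4) for UT and 0 (from 1) for UN without 1 B library. UT against U had 6 to 8 calls in the 26 alternatives run, not always of the same genes, since Mmp2 was lost and Mmp13 gained in several. Leaving out single libraries other than B in the comparisons across tissues was chosen after seeing the data. UN against BB then gave 2 to 5 calls (3 in the full fit), UT against BB 3 to 5, and the interactions 2 to 4 for UT and 0 or 1 for UN. Mmp13 in UN against BB, not called, was 0.42 in the full fit, and without UN 3 it was called with the opposite sign (-2.004), with single UN or BB libraries giving up to 0.6137. No called value changed sign. The 0 Timp1 relations remained 0 with a pseudocount of 4 CPM. Beyond the construction of each alternative, the cause was not tested. The 3 untreated bladders and genes near 0 counts (Mmp7 and Mmp10 in U and B) limit the size of the bladder and baseline values.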
